A study of Mus musculus with 4 samples.

Results

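Hyaluronan is a long sugar chain of the matrix around connective tissue cells, and the data set was read here for 10 genes of its life cycle, out of 32285 genes counted. The genes were taken by symbol: the synthases Has1, Has2 and Has3, the precursor enzymes Ugdh and Gfpt2, the binding proteins Tnfaip6 and Cd44, and the breakdown genes Hyal1, Hyal2 and Cemip. All 10 were found in both libraries. The list was chosen by UMI levels in these same libraries, so the levels across cell classes and the ratios between the ages are a description and carry no test.

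The samples were mesenchymal cells of femur and tibia from 1 young (6 months) and 1 old (24 months) INK-ATTAC mouse. INK-ATTAC animals carry a transgene in which a fragment of the p16Ink4a promoter drives an inducible caspase 8 together with a FLAG tag, and neither mouse received the compound that activates the caspase. Liberase freed the marrow cells and collagenase those of crushed bone. After red cell lysis, blood lineages were removed on magnetic beads, and live CD45- cells were sorted after staining with an oligonucleotide-tagged CD24 antibody. RNA and antibody tags were then counted in the same cells (CITE-seq), with 1 library per age, so that age cannot be told apart from mouse or library.

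Hyaluronan is spun out at the plasma membrane by synthases that join UDP-glucuronate and UDP-N-acetylglucosamine. UGDH makes the former sugar nucleotide, and GFPT2 runs the entry step of the hexosamine pathway toward the latter. TNFAIP6 (TSG-6) ties protein chains onto hyaluronan during inflammation, CD44 is its main cell surface receptor, HYAL1 and HYAL2 cut it, and CEMIP binds it and promotes its breakdown. In joints hyaluronan lubricates the surfaces and in cartilage it holds aggrecan in place.

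Cells with at least 200 genes and at most 20% mitochondrial UMIs (unique molecular identifiers, each counting 1 captured RNA molecule) were kept: 10063 of 11371 barcodes of the young mouse and 5607 of 6729 of the old. Median depth was 6385 UMIs per cell in the young and 9711 in the old library, and 19 barcodes occurred in both. Cells were put in classes by the UMIs of marker lists that hold none of the 10 genes. Class names are short for cells like the named type. The 12 mesenchymal classes held 8129 young and 4235 old cells, 701 and 469 cells fitted no list, and the rest were blood, nerve or muscle cells that passed the sort. The fibroblast class, marked by Pi16, Clec3b, Mfap5, Dpt, Cd248, Dpp4, Fbn1, Igfbp6 and Ly6c1, had 2273 young and 938 old cells. The marrow stromal class, marked by Lepr, Adipoq, Cxcl12 and Kitl among others, had 2985 and 1841. Each class had at least 3 of its own markers among its 10 leading genes, but the same markers had placed the cells, so this is no independent check. The borders were soft: 15.2% of young and 18.4% of old fibroblasts scored nearly as high for another class, against 41.0% and 40.5% of the C7 class and 46.2% and 40.3% of the Scg3 class, which are 2 smaller groups of fibroblasts named after C7 and Scg3.

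The genes that build hyaluronan were concentrated in the fibroblasts, whose class held 19557793 of 81076421 young and 12855417 of 66702846 old RNA UMIs. The fibroblast class held 78.3% of all young Has1 UMIs and 64.1% of the old ones, and 80.7% and 64.7% of the Has2 UMIs. Its share was 72.1% and 58.0% for Ugdh, 74.2% and 63.7% for Gfpt2, and 73.2% and 57.3% for Tnfaip6. The receptor and breakdown genes were spread more widely, with 44.0% and 37.8% of Cd44 UMIs, 13.7% and 12.5% of Hyal1 UMIs, 16.9% and 18.5% of Hyal2 UMIs and 4.34% and 7.38% of Cemip UMIs in the fibroblast class. Below, a level is a count of UMIs per 1000000 RNA UMIs of the class (UPM), with a 95% exact Poisson interval that covers counting error only, and values are given as young, then old.

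Has1 reached 509 UPM (499 to 519, 9952 UMIs) in young and 468 UPM (457 to 480, 6021 UMIs) in old fibroblasts. This was 63.1-fold and 43.5-fold the level of the lowest mesenchymal class of the same mouse. The Scg3 class had 331 and 632 UPM, so the order of the first 2 classes turned around between the mice, with intervals apart in both. Joint lining cells, marked by Prg4 and Clic5, came next in both mice with 197 and 287 UPM, and the C7 class had 113 and 180 UPM. Marrow stromal cells were low at 12.9 and 16.3 UPM, and early osteoblasts at 8.07 and 13.5 UPM. The B cells, erythroid cells and megakaryocytes of the same libraries, pooled, had 9.34 and 2.45 UPM, so that in the young mouse the marrow stromal and early osteoblast levels were close to that of cells which should lack the gene. With predicted doublets removed, the young marrow stromal level was 6.40 UPM.

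Has2, the synthase that embryonic development depends on, was again led by fibroblasts, with 68.6 and 65.5 UPM, and by the Scg3 class, with 59.7 and 61.2 UPM. The intervals of these 2 classes overlapped in both mice. Every other mesenchymal class stood at or under 17.2 UPM apart from the old chondrocytes, at 40.6 UPM. Has3 was at the edge of detection, with 33 young and 18 old UMIs in all kept cells, of which 4 and 0 lay in fibroblasts. A count of 0 in the old fibroblasts allows up to 0.233 UPM, so Has3 was not detectable there at this depth.

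Has1 was seen in many fibroblasts, but its level was uneven among them. When every cell was thinned to 2000 UMIs, Has1 was seen in 25.0% of young and 25.3% of old fibroblasts and in 0.980% and 0.629% of erythroid cells, a type that should lack it. Without thinning the shares in fibroblasts were 38.0% and 46.2%, at median depths of 7770 and 12896.5 UMIs, and erythroid cells had median depths of 11357.5 and 14173 UMIs. Thinned Has2 was seen in 11.2% and 10.4% of fibroblasts. The richest single fibroblast held 153 Has1 UMIs (young) or 137 (old), which is 1.54% and 2.28% of the class total.

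Ugdh followed the synthases, with 737 UPM (725 to 749) in young and 523 UPM (510 to 536) in old fibroblasts and 579 and 711 UPM in the Scg3 class. Joint lining cells had 254 and 260 UPM, and marrow stromal cells 55.4 and 61.2 UPM. Gfpt2 stood at 315 and 258 UPM in fibroblasts, at 242 and 224 UPM in the Scg3 class and at 13.8 and 17.8 UPM in marrow stromal cells. In the old mouse the Gfpt2 intervals of fibroblasts and the Scg3 class overlapped, and in the young mouse they did not. After thinning, 46.4% and 41.7% of fibroblasts held a Ugdh UMI and 32.7% and 31.6% a Gfpt2 UMI.

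Tnfaip6 reached 731 UPM (719 to 743) in young and 636 UPM (622 to 650) in old fibroblasts. The Scg3 class had 279 and 938 UPM and the C7 class 358 and 494 UPM, whereas the joint lining cells, rich in Has1, had only 83.3 and 85.7 UPM. Cd44 had a different order. The Scg3 class was highest among mesenchymal cells with 422 and 479 UPM, followed by fibroblasts with 180 and 256 UPM and joint lining cells with 161 and 228 UPM, whose intervals overlapped. Cd44 is also a leukocyte gene, and the few neutrophils that passed the sort had 414 and 584 UPM. In marrow stromal cells Cd44 was 27.5 and 28.6 UPM, and in chondrocytes 25.5 and 120 UPM.

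The breakdown genes had their highest mesenchymal levels elsewhere. Hyal1, a lysosomal hyaluronidase, was highest in marrow stromal cells at 14.2 and 11.8 UPM and stood at 4.65 and 4.67 UPM in fibroblasts. Hyal2, which is anchored to the cell surface, ranged from 2.31 to 16.1 UPM in the young and from 4.06 to 13.9 UPM in the old classes. Both were near the pooled B, erythroid and megakaryocyte level, which was 8.53 and 7.23 UPM for Hyal1 and 8.30 and 9.31 UPM for Hyal2, so no further order of classes is read from them. Cemip was highest in chondrocytes, the cartilage cells, with 299.8 UPM in the young and 128 UPM in the old mouse. Fibrochondrocytes had 106 and 90.04 UPM of Cemip, connective tissue cells 102 and 53.3 UPM, C7 cells 55.2 and 32.5 UPM and joint lining cells 52.0 and 54.6 UPM. Fibroblasts had 4.14 and 7.08 UPM, marrow stromal cells 5.63 and 5.55 UPM, and no Cemip UMI was found in pericytes or smooth muscle cells. Over the 24 class levels of both mice, the Pearson correlation of log2(UPM + 5) was 0.03 between Cemip and Has1 and 0.94 between Gfpt2 and Has1, as a description of points that share libraries.

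**Figure D1:**
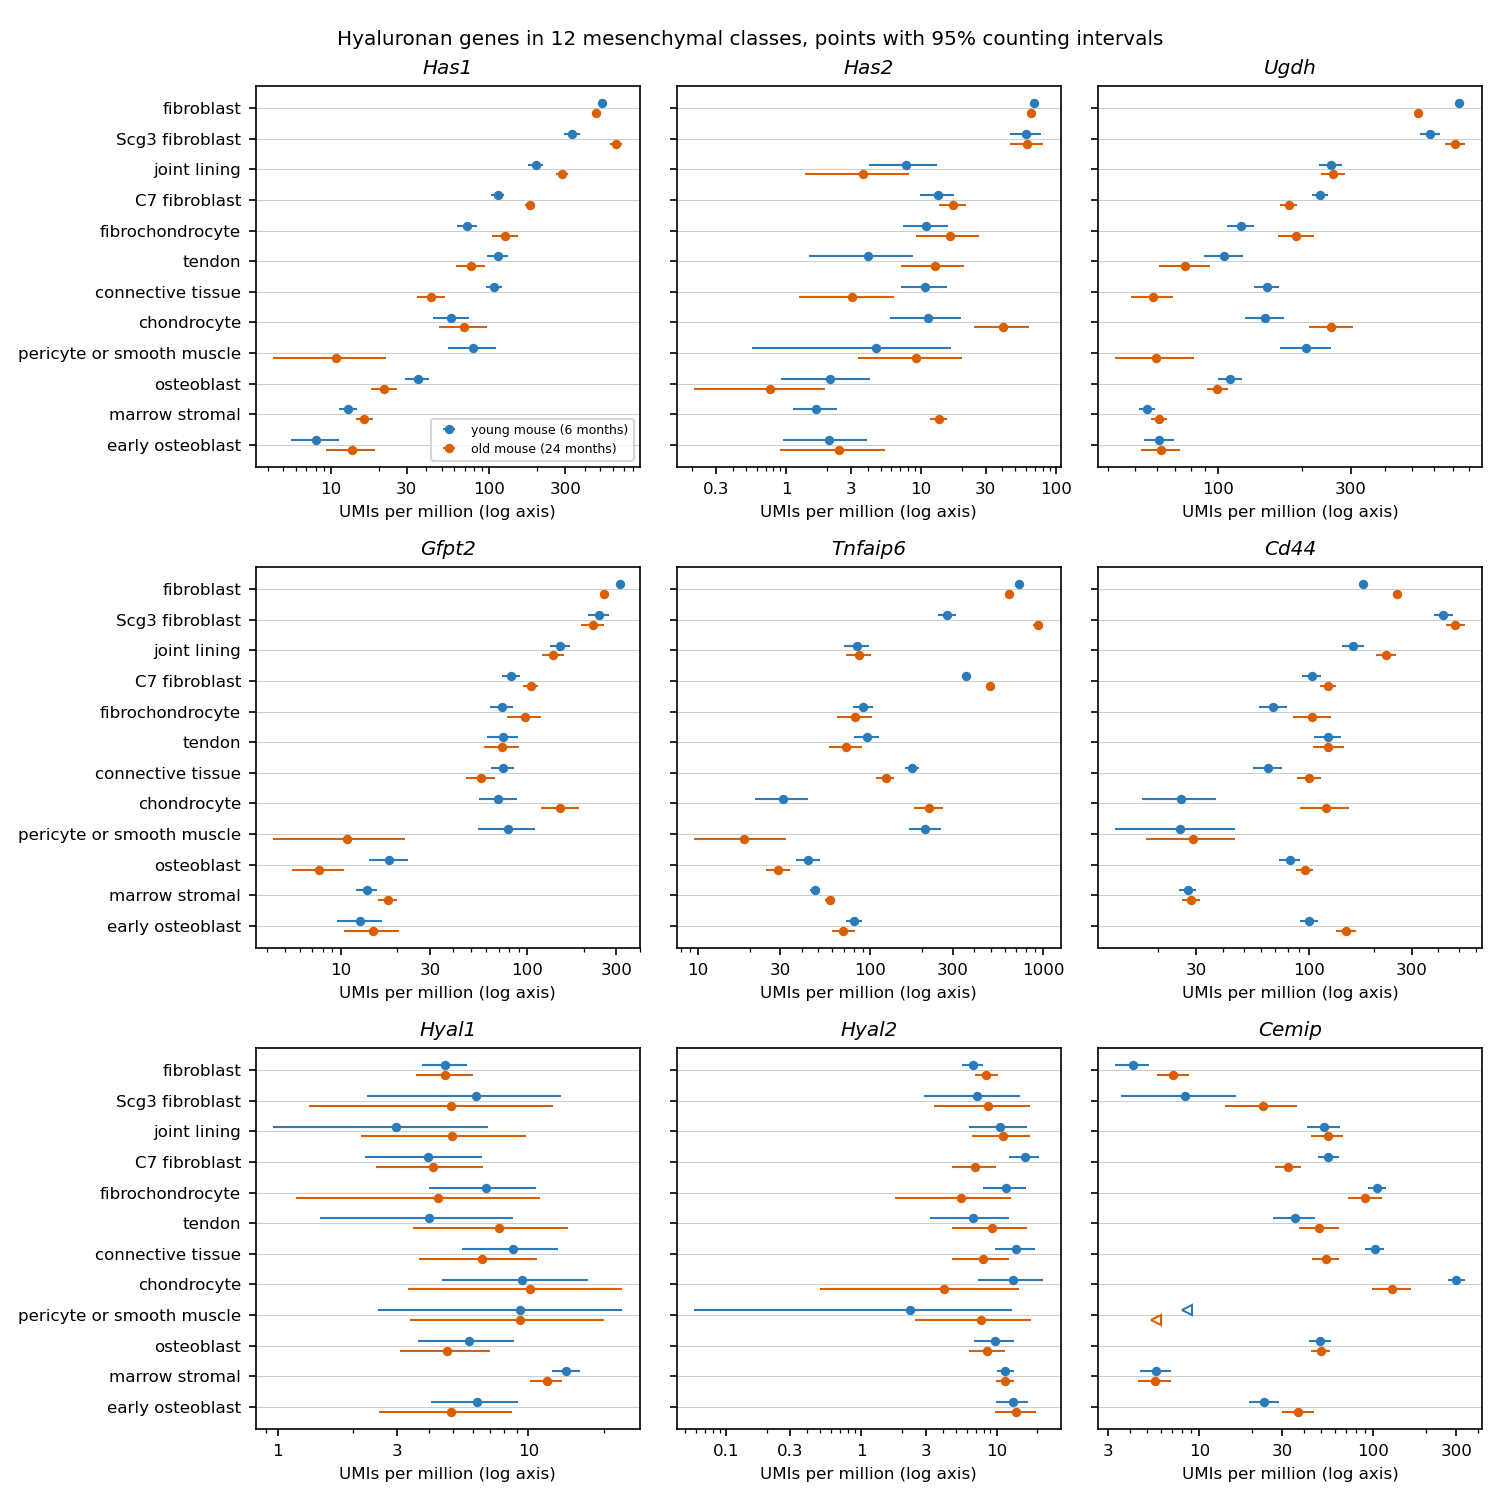
Level of 9 hyaluronan genes (UPM, log axis) in 12 mesenchymal classes of each mouse, with 95% counting intervals and open triangles at the upper limit where no UMI was counted. Has1, Has2, Ugdh and Gfpt2 lie furthest right in the fibroblast and Scg3 classes, as does Tnfaip6 in the old mouse, while in the young its second highest class is C7. Cemip lies furthest right in the chondrocytes.

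Which synthase the UMIs came from differed between classes. Has2 made up 11.9% (11.3 to 12.5, exact binomial interval) of Has1 plus Has2 UMIs in young and 12.3% (11.5 to 13.1) in old fibroblasts. In joint lining cells it was 3.76% and 1.28%, with intervals below those of the fibroblasts in both mice. Chondrocytes had 16.4% and 37.0%. Marrow stromal cells went from 11.5% (7.81 to 16.05) in the young mouse to 45.3% (40.6 to 50.0) in the old. The genes may differ in how well they are captured, so these shares are to be compared between classes and not read as ratios of transcripts.

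**Figure D2:**
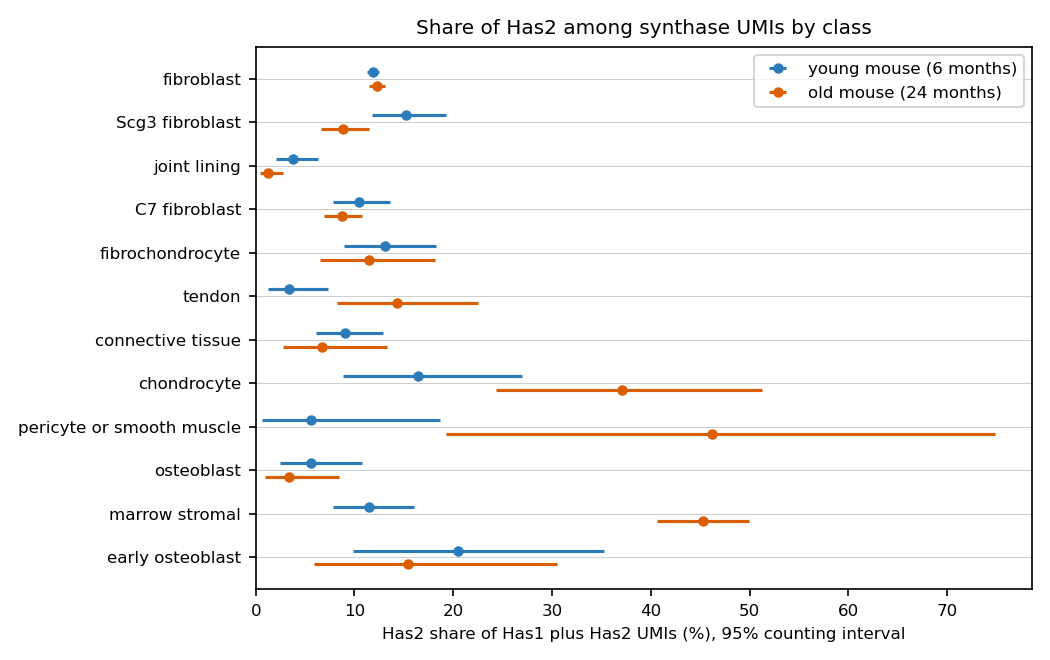
Share of Has2 among Has1 plus Has2 UMIs (percent) by class and mouse, with exact binomial 95% intervals. Joint lining cells lie below the fibroblasts in both mice, and marrow stromal cells of the old mouse lie at 45.3%.

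Within the fibroblast class the synthesis genes were higher still in cells called by the Pi16 list (Pi16, Dpp4, Sema3c and Cd55), a list for the adventitial type of fibroblast. These were 181 of 2273 young and 111 of 938 old fibroblasts. Has1 was 903 UPM in Pi16-list cells against 478 UPM in the other 2092 young fibroblasts, 1.89-fold (1.78 to 2.00), and 1346 against 382 UPM in the old mouse, 3.53-fold (3.33 to 3.74). Has2 was 2.47-fold and 2.07-fold, Ugdh 2.43-fold and 2.61-fold, and Gfpt2 2.19-fold and 2.93-fold the level of the other fibroblasts. Tnfaip6 was 1.06-fold (1.00 to 1.13, an interval that holds 1) in the young and 1.95-fold (1.84 to 2.07) in the old. Cd44 was 1.46-fold in the young and 0.961-fold (0.848 to 1.09) in the old mouse. Single cells were 1 source of the high values, since the richest young Pi16-list cell held 11.9% of their Has1 UMIs and the richest old one 8.80%. Cemip stayed at 5 and 2 UMIs in the Pi16-list cells.

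Fibroblasts with several inflammatory RNAs had the most Has1, Tnfaip6 and Ugdh. Thinned fibroblasts were split by how many of the secreted factor genes Il6, Cxcl1 and Ccl7 and the prostaglandin synthase gene Ptgs2 were seen in the cell. None was seen in 64.1% of young and 68.3% of old fibroblasts, and all 4 in 2.98% and 2.53%, that is 66 and 23 cells. Has1 went from 83.7 UPM with none seen, through 427, 1037 and 2411 UPM, to 3311 UPM with all 4 seen in the young mouse. In the old mouse it went from 118 through 358, 1471 and 2464 to 4826 UPM. Both mice thus had a stepwise order, and adjacent Has1 intervals did not overlap.

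Tnfaip6, a known target of inflammatory signals, had the same order, from 79.2 to 5492 UPM in the young and from 139 to 5804 UPM in the old fibroblasts. Ugdh went from 343 to 3250 UPM and from 268 to 3696 UPM, upward at every step. Gfpt2 also went up at every step in the young mouse, from 179 to 1220 UPM, but in the old it stood at 175, 248, 816, 798 and 891 UPM, with overlapping intervals from 2 to 4 genes seen. Has2 had a far smaller range, at 61.9, 72.1, 132, 144 and 98.5 UPM in the young mouse from none to all 4 seen, and at 50.8, 48.4, 95.6, 202 and 174 UPM in the old. The last 2 old values rest on 17 and 8 UMIs. Cd44 went from 132 to 311 UPM and from 192 to 478 UPM. Cemip had at most 9 UMIs in any of these groups, too few to order.

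The summed immediate-early and stress genes (Fos, Jun, Egr1, Hspa1a and others), which also answer to tissue digestion, followed another course. They stood at 7229, 15244, 19390, 15292 and 13008 UPM in the young fibroblasts from none to all 4 genes seen, and at 7396, 16442, 23831, 17702 and 11652 UPM in the old. Their peak lay at 2 genes seen while Has1 and Tnfaip6 were highest at 4. The inflammatory genes could answer to the dissociation as well, and the part of either in the Has1 level was not tested. Marrow stromal cells had up to 3 of the 4 genes seen, and those with 2 seen had 66.2 and 122 UPM of Has1 and 257 and 293 UPM of Tnfaip6. These rest on 9 and 10 Has1 UMIs in 4 cells of each mouse, of which 1 cell held 4 and 6, and on 35 and 24 Tnfaip6 UMIs, of which 1 cell held 14 and 9. They stand against 6.79 and 7.32 UPM of Has1 and 14.0 and 24.2 UPM of Tnfaip6 with none seen. Their Has2 UMIs lay in the cells with none of the genes seen, 8 and 46 UMIs, and with 1 seen, 1 and 4 UMIs.

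**Figure D3:**
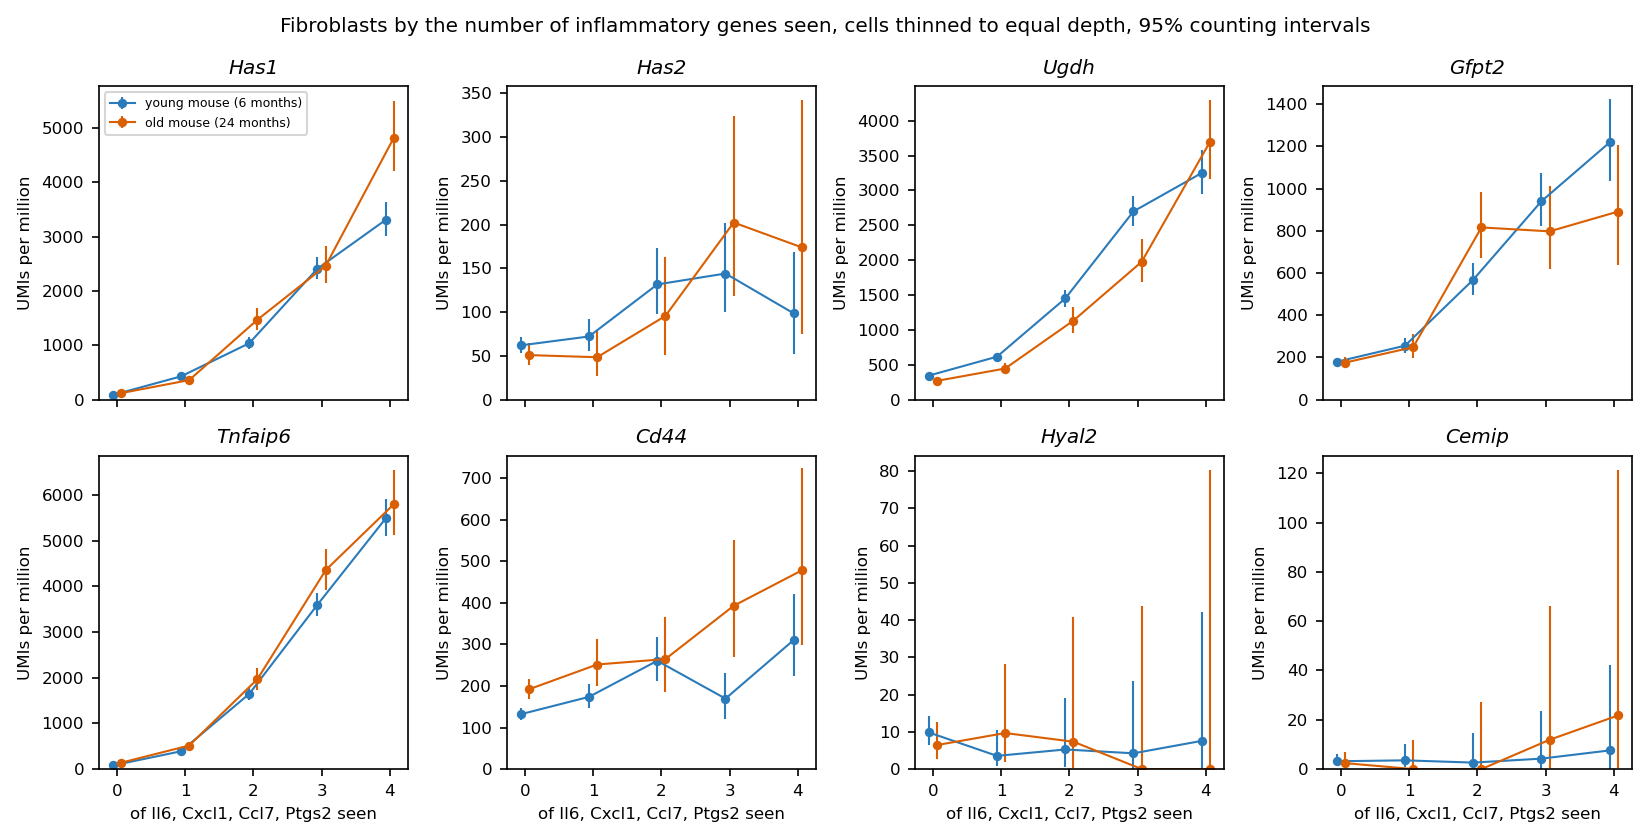
Level of 8 hyaluronan genes (UPM, linear axis from 0) in fibroblasts thinned to 2000 UMIs, split by how many of Il6, Cxcl1, Ccl7 and Ptgs2 were seen in the cell, per mouse with 95% counting intervals. Has1, Tnfaip6 and Ugdh climb with every step in both mice. Has2 and Cd44 cover a much smaller range, and Has2 in both mice and Cd44 in the young mouse fall at a step.

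The same genes also met in single cells. Of the thinned fibroblasts, 555 young and 230 old cells held a Has1 UMI and 1663 and 678 did not. Tnfaip6 was seen in 55.0% of young cells with Has1 and 16.4% of those without, and in 61.7% against 18.6% in the old mouse. Ugdh was seen in 71.9% against 37.9% and in 66.1% against 33.5%, and Gfpt2 in 55.7% against 25.0% and in 55.2% against 23.6%. Has2 was seen in 16.6% against 9.44% of young and in 17.0% against 8.11% of old cells. For Cd44 the shares were 29.0% against 20.7% and 34.3% against 28.3%, with overlapping intervals in the old mouse.

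Has1, Ugdh, Gfpt2 and Tnfaip6 were all higher in fibroblasts with all 4 inflammatory genes seen than in those with none. So was Cd44, over a smaller range, but its window is not printed. For Has1, Ugdh, Gfpt2 and Tnfaip6 the 250 bases before the transcript start are shown. They are read 5′ to 3′ in the direction of the gene from RefSeq's promoter table (GRCm38.p6, the assembly also called mm10). The table held 8 of the 10 genes, and Has2 and Has3 were not among them. Capitals mark matches to the motifs searched on both strands: the κB consensus, AP-1 (TGANTCA), the cAMP response element CRE (TGACGTCA) and TATAAA. By RefSeq the genes span chr17:17833691-17855589 (Has1), chr5:65413207-65435842 (Ugdh), chr11:49794155-49838620 (Gfpt2) and chr2:52038113-52056681 (Tnfaip6). The Has1 window lies inside the span of its gene, because the table takes a start that is not the outermost one, and so does the window of Hyal2. The windows are chr17:17855189-17855438 on the minus strand for Has1, chr5:65435843-65436092 on the minus strand for Ugdh, chr11:49793905-49794154 on the plus strand for Gfpt2 and chr2:52037863-52038112 on the plus strand for Tnfaip6.
Has1: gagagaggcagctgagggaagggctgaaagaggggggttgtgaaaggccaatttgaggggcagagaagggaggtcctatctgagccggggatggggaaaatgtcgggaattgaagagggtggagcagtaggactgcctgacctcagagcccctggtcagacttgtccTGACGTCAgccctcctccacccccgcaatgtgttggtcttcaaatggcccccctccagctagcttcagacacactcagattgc
Ugdh: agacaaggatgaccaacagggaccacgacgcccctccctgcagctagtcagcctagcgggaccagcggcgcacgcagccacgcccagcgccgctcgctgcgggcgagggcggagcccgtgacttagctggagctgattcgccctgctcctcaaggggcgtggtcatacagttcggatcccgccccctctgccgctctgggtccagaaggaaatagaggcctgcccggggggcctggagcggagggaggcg
Gfpt2: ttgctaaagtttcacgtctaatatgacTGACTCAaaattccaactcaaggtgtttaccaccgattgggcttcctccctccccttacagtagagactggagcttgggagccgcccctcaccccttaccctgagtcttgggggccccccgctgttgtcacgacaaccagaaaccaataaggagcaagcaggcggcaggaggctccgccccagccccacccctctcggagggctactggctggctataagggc
Tnfaip6: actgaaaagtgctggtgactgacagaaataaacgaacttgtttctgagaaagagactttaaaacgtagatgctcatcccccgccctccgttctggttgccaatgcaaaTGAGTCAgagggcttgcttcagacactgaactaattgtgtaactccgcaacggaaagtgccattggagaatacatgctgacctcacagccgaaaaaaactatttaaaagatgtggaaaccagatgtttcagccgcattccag

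Has1 had a CRE match 83 to 76 bases before the start, Gfpt2 an AP-1 match at 223 to 217 bases and Tnfaip6 an AP-1 match at 142 to 136 bases. The window of Ugdh, at 69.2% G and C the richest of the 4, held no match, and the other 3 had 44.4% to 58.0%. Of the remaining genes, Cemip had TATAAA at 29 to 24 bases and Hyal2 a κB match at 238 to 229 bases before the start, and the windows of Cd44 and Hyal1 had none. Among 32851 promoter windows of that length, 6.75% held an AP-1 match, 1.55% a CRE match, 3.9% a κB match and 12.4% TATAAA. The motifs were chosen after the sequences were seen, and a match describes letters only.

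Between the ages, no hyaluronan gene was 2-fold apart in the fibroblast class, and differences of at least 2-fold lay in other classes. With 1 mouse per age there is no test, and the intervals of a ratio (exact conditional, 95%) cover counting error but not the spread between animals. Over the 12 classes, 95 pairs of gene and class had at least 20 UMIs, and 8 were at least 2-fold higher and 11 at least 2-fold lower in the old mouse. Of all genes, 1.93% to 7.22% were at least 2-fold higher and 1.26% to 8.75% lower, depending on the class. For these shares a small constant was added to each count, which was not done for the 95 pairs, so the cuts differ slightly at low counts. In fibroblasts 0 of 9 genes were 2-fold apart either way, where the share of all 13585 genes was 2.94% higher and 1.93% lower. The median log2 difference of all genes lay between -0.16 and 0.06 in each class.

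In fibroblasts the log2 ratio of old over young was -0.49 (-0.54 to -0.45) for Ugdh, -0.29 (-0.35 to -0.23) for Gfpt2 and -0.07 (-0.19 to 0.06) for Has2. For Has1 it was -0.12 (-0.17 to -0.07) and for Tnfaip6 -0.20 (-0.24 to -0.16), but in cells thinned to equal depth these were 0.11 and 0.13, so no direction is given for either. Gfpt2 thinned was -0.08 (-0.23 to 0.07), and Ugdh thinned -0.41. The inflammatory genes listed beside the hyaluronan genes summed to 4174 UPM in young and 2403 UPM in old fibroblasts, and the stress genes to 10758 and 9920 UPM. Their part in the ratios was not tested.

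In fibroblasts Cd44 stood higher in the old mouse, with a log2 ratio of 0.51 (0.44 to 0.58), and 0.50 in thinned cells. Its interval lay above 0 in 8 of 12 classes and below 0 in none, and it held 0 in marrow stromal, Scg3, tendon and pericyte or smooth muscle cells. Without the richest cell of each mouse it also held 0 in osteoblasts (-0.003 to 0.43) and fibrochondrocytes (-0.02 to 0.77). Such intervals are narrow where counts are high: that of Has1 lay above 0 in 6 classes and below 0 in 5, and that of Ugdh in 4 and 5. The share of all genes with an interval clear of 0 was not counted, so the 8 classes are not read as a rise with age. Neutrophil markers also differed in fibroblasts, at 47.5 UPM in the young and 367 UPM in the old mouse, beside a Cd44 level of 414 and 584 UPM in neutrophils themselves. The part of free neutrophil RNA in the Cd44 ratio was not tested. Ptprc, which encodes CD45, stood at 0.920 and 2.80 UPM in the same fibroblasts.

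Has2 in marrow stromal cells had the highest old over young ratio of the 95 pairs. The young mouse had 29 Has2 UMIs in 28 of 2985 cells (1.67 UPM) and the old 206 in 77 of 1841 (13.4 UPM), a ratio of 8.07 (5.46 to 12.4), where 2.28% of all genes were at least 2-fold higher and 2.06% lower. No single cell made this difference, since the log2 ratio was 3.01 with all cells and 2.97 without the richest cell of each mouse. After thinning, 0.334% of young and 1.499% of old marrow stromal cells held a Has2 UMI. The counts were uneven among the old cells: 15 of them held at least 4 Has2 UMIs each and 121 in all.

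The young cells with Has2 differed from the old ones in predicted doublets and fibroblast markers. Of the 28 young cells, 8 were predicted doublets, and their fibroblast markers summed to 2658 UPM against 730 UPM in stromal cells without Has2. In the old mouse 1 of 77 was a predicted doublet, with fibroblast markers at 964 against 725 UPM and stromal markers at 37031 against 36744 UPM. The old cells with Has2 had 80.4 UPM of Has1 against 12.6 in those without and 184 against 51.3 UPM of Tnfaip6. In the young mouse Has1 was 18.1 against 12.8 UPM and Tnfaip6 18.1 against 48.3 UPM. The young levels with Has2 rest on a few UMIs of each gene in 28 cells, so no direction is read from them. A single old marrow stromal cell held 51 of the 249 Has1 UMIs of the class, and whether it held Has2 was not examined. In the old cells with Has2 the stress genes summed to 15392 against 9185 UPM, and the inflammatory genes to 1576 against 1434 UPM. Has1 itself had a log2 ratio of 0.34 (0.07 to 0.60) in marrow stromal cells. The ratio was 0.21 (-0.08 to 0.51) without the richest cell of each mouse and 1.29 (0.95 to 1.64) with predicted doublets removed. Removing doublets also moved Tnfaip6 from 0.29 to 0.91 and Gfpt2 from 0.37 to 0.79.

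In the Scg3 class, with 104 young and 62 old cells, Tnfaip6 was 3.36-fold and Has1 1.91-fold in the old mouse, where 4.23% of all genes were at least 2-fold higher. The Tnfaip6 log2 ratio of 1.75 was the same without the richest cells and 3.03 when 1 more marker had to be seen, a setting that also moved Has1 from 0.93 to 2.21. Cemip had 8 and 19 UMIs in this class, a ratio of 2.83. Inflammatory genes summed to 2781 UPM in young and 3604 UPM in old Scg3 cells.

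Chondrocytes, with 104 young and 36 old cells, had 4 genes at least 2-fold higher and 1 lower, where the share of all genes was 7.22% higher and 8.75% lower. Tnfaip6 was 6.99-fold (33 against 107 UMIs), and 52 of the old UMIs lay in 1 cell, without which the log2 ratio was 2.51 instead of 2.80. In thinned cells it was 5.23 with a wide interval (2.48 to 10.7). Inflammatory genes summed to 504 UPM in young and 1735 UPM in old chondrocytes and stress genes to 14793 and 20565 UPM, and their part in these ratios was not tested. Cd44 was 4.71-fold on 27 against 59 UMIs, Has2 3.59-fold on 12 against 20 UMIs and Gfpt2 2.15-fold. Cemip was 0.427-fold, with 318 against 63 UMIs. Of the old chondrocytes 41.7% scored nearly as high for another class, against 21.2% of the young.

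**Figure D4:**
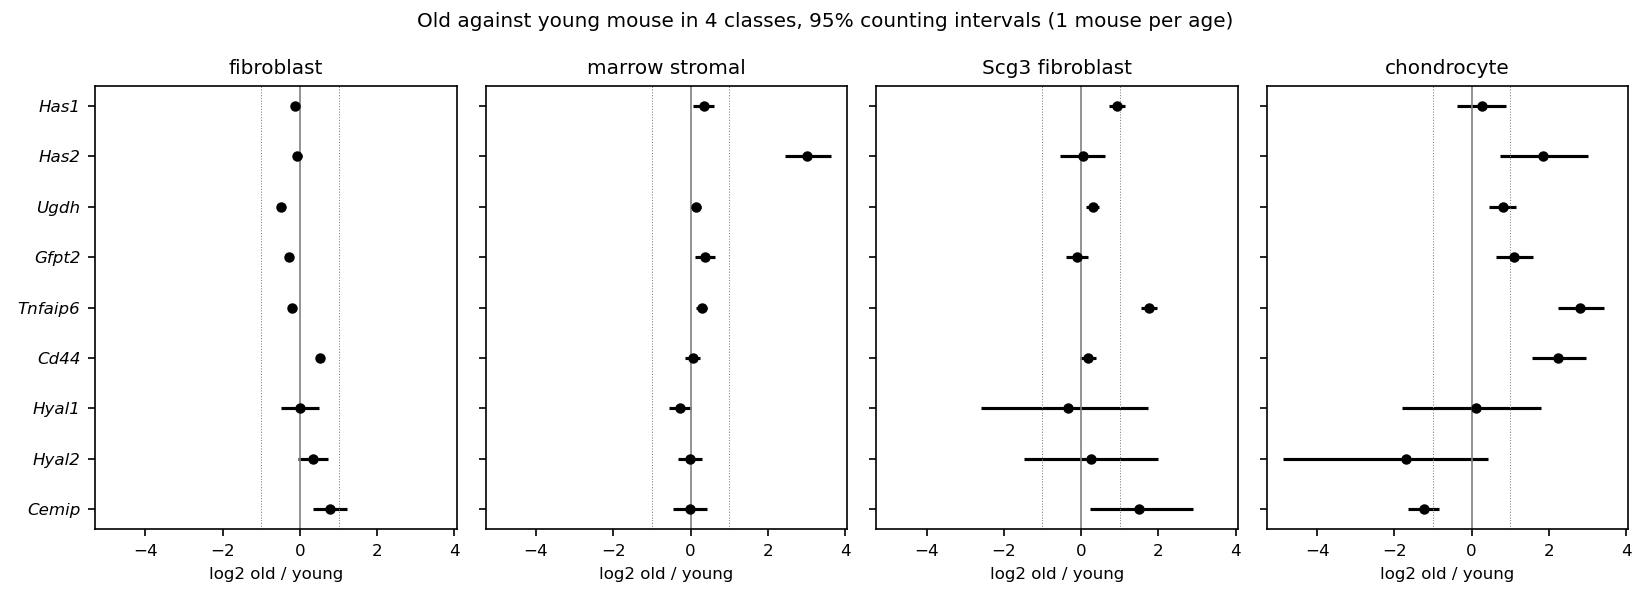
Log2 ratio of the old over the young mouse for 9 hyaluronan genes in 4 classes, with 95% counting intervals, a line at 0 and dotted lines at 2-fold. Fibroblast points lie inside the dotted lines, while Has2 in marrow stromal cells lies at 3.01 and Tnfaip6 in chondrocytes at 2.80.

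Values at least 2-fold lower in the old mouse came from 6 classes, the chondrocytes included. In connective tissue cells, marked by Mmp3, Dio2 and Megf6, Has1 was 0.399-fold, Has2 0.286-fold and Ugdh 0.388-fold in the old mouse, where 2.63% of all genes were at least 2-fold lower. The log2 ratio of Has1 was -1.32 with all cells, -1.02 without the richest cell of each mouse, -0.86 with predicted doublets removed and -0.79 (-1.73 to 0.07) in thinned cells, so its 2-fold call did not hold in the latter 2. That of Ugdh was -1.36 with all cells, -0.91 without the richest cells and -0.95 in thinned cells. In pericytes or smooth muscle cells Has1 was 0.137-fold, Ugdh 0.288-fold, Gfpt2 0.137-fold and Tnfaip6 0.0887-fold, against 2.89% of all genes lower and 3.98% higher. There 1 young cell held 30 of the 34 Has1 UMIs, 70 of the 90 Tnfaip6 UMIs and 41 of the 90 Ugdh UMIs of the class, and with predicted doublets removed the log2 ratio of Has1 was 0.14 (-1.84 to 2.36), that of Tnfaip6 -1.41 instead of -3.49 and that of Ugdh -0.999 instead of -1.79. Gfpt2 in osteoblasts was 0.419-fold (5.54% of all genes lower and 2.06% higher) and Hyal2 in the C7 class 0.431-fold (1.26%). Hyal2 in fibrochondrocytes was 0.464-fold with an interval that held 1 (4.33% lower and 2.76% higher). Tendon cells had Has2 3.17-fold higher on 6 against 15 UMIs (2.19% higher and 3.19% lower). No gene was 2-fold apart among 8 in early osteoblasts, where 2.53% of all genes were higher and 2.39% lower, or among 7 in joint lining cells, where 3.65% were higher and 2.98% lower.

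CD24 protein, which did not take part in choosing the genes or the classes, allowed a test. Mesenchymal cells were split by their antibody count into CD24+ (659 young and 213 old cells) and CD24- (7470 and 4022 cells), and the UMIs of each side were summed per mouse. Gfpt2, Tnfaip6, Ugdh and Has1 were lower and Cemip and Cd44 higher in the CD24+ cells of both mice. That is 2 genes higher and 4 lower among 9 tested, against 6.29% higher and 5.62% lower among all 15335 genes tested. Has3 had too few UMIs for the test. The median log2 difference of the 9 genes was -0.42 and that of all genes -0.00.

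Has1 had 138 UPM in CD24+ and 212 UPM in CD24- cells of the young mouse and 140 and 179 UPM in those of the old. Its log2 difference was -0.42 ± 0.089 (SE, edgeR quasi-likelihood test with the mouse as a block, Benjamini-Hochberg adjusted p = 0.0329), and it was lower in 2 of 2 mice. Gfpt2 had 82.4 against 139 UPM and 56.5 against 105 UPM, a difference of -0.74 ± 0.074 (edgeR adjusted p = 0.00318). For Tnfaip6 the levels were 200.04 against 322 UPM and 170 against 277 UPM, with -0.62 ± 0.063 (edgeR adjusted p = 0.00332). Ugdh had 222 against 332 UPM and 160 against 226 UPM, with -0.46 ± 0.067 (edgeR adjusted p = 0.00990).

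Cemip had 57.4 against 24.3 UPM in the young and 43.6 against 21.4 UPM in the old mouse, the largest difference of the 9 at 1.22 ± 0.095 (edgeR adjusted p = 0.00190). Cd44 had 118 against 105 UPM and 159 against 132 UPM, with 0.30 ± 0.071 (edgeR adjusted p = 0.0484). Has2 had 14.5 against 28.1 UPM and 22.4 against 26.2 UPM, a difference of -0.55 ± 0.19 that missed the threshold (edgeR adjusted p = 0.122). Hyal1 at -0.40 ± 0.20 and Hyal2 at 0.45 ± 0.20 missed it as well (edgeR adjusted p = 0.272 and 0.214), and Hyal2 pointed in opposite ways in the 2 mice.

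These differences moved with the class mix of the CD24+ cells. Fibroblasts were 14.3% of CD24+ against 29.2% of CD24- cells in the young mouse and 13.6% against 22.6% in the old, while early osteoblasts were 23.5% against 4.67% and 16.4% against 3.31%, and chondrocytes 5.61% against 0.897% and 4.23% against 0.671%. With CD24- cells weighted so that their classes had the CD24+ shares, Has1 differed by 0.25 (log2, young) and -0.04 (old), Ugdh by 0.08 and -0.30, Tnfaip6 by 0.05 and -0.43 and Gfpt2 by -0.01 and -0.60. Cemip was at 0.18 and 0.33 and Cd44 at 0.42 and 0.22. In the old mouse the lower values of Ugdh, Tnfaip6 and Gfpt2 thus remained after weighting, and in the young they were near 0, a difference between the mice that was not tested. Within the fibroblast class, with 94 and 29 CD24+ cells, Has1 was 638 against 501 UPM and 512 against 467 UPM, Tnfaip6 865 against 723 UPM and 632 against 636 UPM, and Gfpt2 314.9 against 315 UPM and 211 against 260 UPM. The part of the class mix in the differences was not tested. Without the mouse as a block the edgeR adjusted p of Cemip was 0.0289 and those of Has1, Ugdh, Gfpt2, Tnfaip6 and Cd44 were 0.118, 0.332, 0.145, 0.0653 and 0.432. Each side has 2 sums, from 1 mouse each, so the p-values rest on the spread between 2 animals of different age. With a mixture threshold for CD24 the edgeR adjusted p was 0.0924 for Has1 and 0.0411 for Has2, and DESeq2 gave Cd44 an adjusted p of 0.220.

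**Figure D5:**
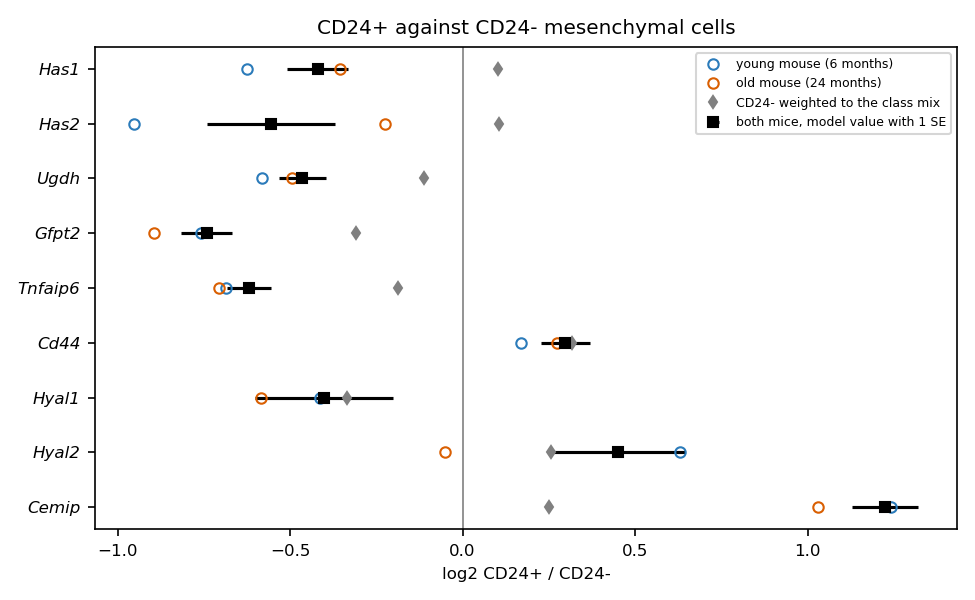
Log2 difference of CD24+ over CD24- mesenchymal cells for 9 hyaluronan genes: squares are the model value with 1 standard error, open circles each mouse, and grey diamonds the mean with CD24- cells weighted to the class mix. Cemip lies at 1.22 before and 0.25 after weighting, and Has1 at -0.42 and 0.10, the latter a mean of 0.25 (young) and -0.04 (old).

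The wider hyaluronan pathway was read from lists set beside the 10 genes. Of all genes tested, 6.29% were higher and 5.62% lower in CD24+ cells. Among 9 genes of UDP-sugar supply, CD24 status gave 1 higher (Gfpt1, 0.38, the main form of the enzyme that Gfpt2 also encodes) and 3 lower: Gnpnat1 at -0.55, Uap1 at -0.40 and Ugp2 at -0.37, which act in the making of both sugar nucleotides. Of 7 further breakdown genes 5 were tested, and Cemip2 (0.77) and Hexa (0.42, a lysosomal hexosaminidase subunit) were higher. Of 24 binding and cross-linking genes 16 were tested: the cartilage genes Acan (2.18) and Hapln1 (2.14) the receptor Hmmr (1.63) and Susd5 (1.90) were higher, and Vcan (-0.50) and Itih5 (-0.57) were lower. The edgeR adjusted p-values of the genes named here lay between 0.000398 and 0.0264. Acan is itself a marker of the chondrocyte class. In both mice Acan, Hapln1 and Susd5 were highest in chondrocytes and Hmmr in early osteoblasts. Both classes made up a larger share of CD24+ than of CD24- cells. The genes of the wider lists were not weighted to the class mix, so its part in their differences was not tested.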

How the data were processed

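Raw UMI counts per gene and cell barcode, and CD24 antibody counts, were deposited by the authors as filtered matrices of 2 libraries. The file header names Cell Ranger 6.1.1, and the submitters' processing notes name mm10, R 4.0.3 and Seurat 4.0. The study's methods name an earlier Cell Ranger release. The 10 genes and all lists were chosen with earlier results of these data known. Cells under 200 genes (588 young, 298 old) or over 20% mitochondrial UMIs (1306, 1117) were left out. The kept cells held 81076421 and 66702846 UMIs.

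For the classes, each marker's share of a cell's UMIs was scaled to the 90th percentile of its positive cells, averaged per list, and the cell went to the highest list of 25 if at least 2 markers were seen. A cell was near another class if that list reached 80% of the best score. Doublets predicted by Scrublet (scanpy 1.11.5) were 2.67% and 1.02% and were kept unless stated. Thinning drew 2000 UMIs per cell and left out 770 and 496 shallower cells. Intervals are exact Poisson, Clopper-Pearson or exact conditional at 95% (SciPy 1.17.1), cover counting error only, and a count of 0 allows 3 counts. Otsu thresholds of log(1 + antibody count), at 319.5 and 410.5 counts, split CD24+ from CD24- cells.

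Sums per mouse and CD24 status were tested with edgeR 4.0.16 (R 4.3.3; TMM, filterByExpr, quasi-likelihood F test, two-sided, Benjamini-Hochberg over 15335 genes, threshold 0.05), with the mouse as a block because both sums of a pair come from 1 animal. The test was tried on simulated data with a fixed, low dispersion, where 200 genes were shifted by 2 in log2 alike in both mice. Over the 15293 genes tested it recovered 95.5% of the shifted genes among them, with 4 false calls. That shift is larger than any difference of the 10 genes, so the trial cannot tell how well smaller differences are found. DESeq2 1.42.0, other filters, thresholds and mitochondrial limits were alternatives, and the removal of the richest cell was added after seeing the data. Named genes are the 10, and those of the wider lists past the threshold or with the 2 largest changes each way. With 1 library per age no test of age was made.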

Additional observations from a re-analysis of the deposited data

Results flagged for a closer look

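Several hyaluronan genes had ratios of old over young that pointed in opposite ways in different classes, with counting intervals on either side of 0. The difference between the classes was not tested, since each age is 1 mouse, and the cause was not tested. The log2 ratio of Has1 was 0.93 in the Scg3 class and -2.87 in pericytes or smooth muscle cells. Without the richest cell of each mouse the latter rested on 4 and 1 UMIs, at -2.64 with an interval that held 0 (-8.26 to 0.70). With predicted doublets removed its sign turned. Has2 was at 3.01 in marrow stromal cells and at -1.80 in connective tissue cells, the latter on 27 and 7 UMIs. Ugdh was at 0.80 in chondrocytes and at -1.79 in pericytes or smooth muscle cells, and Gfpt2 at 1.11 and -2.87 in the same pair of classes. Tnfaip6 was at 2.80 in chondrocytes and -3.49 in pericytes or smooth muscle cells, and without the richest cell of each mouse at 2.51 and -1.81. Cemip was at 1.5 in the Scg3 class and at -1.23 in chondrocytes. The log2 ratio of Hyal2 between CD24+ and CD24- mesenchymal cells was 0.63 in the young mouse on 103 CD24+ UMIs and -0.05 in the old on 30, a difference between the mice that was not tested either.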

How the results depend on the processing

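Of 95 pairs of gene and class, 19 were at least 2-fold apart between the ages. Depending on the class, 1.93% to 7.22% of all genes were this much higher and 1.26% to 8.75% lower, with a small constant added to their counts. In cells thinned to 2000 UMIs 9 of the 67 pairs with enough UMIs were 2-fold apart, and some pairs such as Has1 and Ugdh in connective tissue came under 2-fold. Thinning also turned the log2 ratio of old over young for Has1 (0.11), Tnfaip6 (0.13) and Cemip (-0.30) in fibroblasts and Gfpt2 in connective tissue (0.14). With 1 more marker required, Ugdh (0.061) and Cemip (0.81) turned in the C7 class and Tnfaip6 (0.81) in connective tissue. Has1 in pericytes or smooth muscle turned with doublets removed (0.14), and Ugdh in tendon without the richest cells (0.18). A mitochondrial limit of 10% turned none of 112 ratios.

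The test of CD24 status called 1826 genes with the replicate block, 458 with no replicate block, 2801 with no filter and 1132 in DESeq2 with the block. Without the block, Cemip remained past the threshold and the other called hyaluronan genes did not. The mixture threshold lost Has1. Has2 passed with the mixture threshold, with a mitochondrial limit of 10% (edgeR adjusted p = 0.0229) and with no filter (edgeR adjusted p = 0.00362). Weighting to the class mix turned the means of both mice for Has1 (0.10) and Has2 (0.10), but Has1 turned in the young mouse only (0.25, and -0.04 in the old) and Has2 in the old only (0.29, and -0.09 in the young), and Hyal2 lay between -0.052 and 0.63 when either mouse was left out. The cause was not tested. Hyal1, Hyal2 and Has3 were too shallow to order the classes, and classes of under 100 cells in the old mouse rest on few cells.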

Other observations

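Genes outside the 10 that act in the same pathway were also read by class. Among genes with at least 20 UMIs, 7 of 9 other UDP-sugar genes, 2 of 5 breakdown genes and 10 of 17 binding and cross-linking genes stood higher in fibroblasts than in marrow stromal cells in both mice, where the share of all 16440 such genes was 30.2%. Ugp2, which makes UDP-glucose, had 248 and 220 UPM in fibroblasts of the young and the old mouse against 85.7 and 88.8 UPM in marrow stromal cells. Uap1, which completes UDP-N-acetylglucosamine, had 420 and 312 UPM against 67.8 and 51.4 UPM, and Gnpnat1, which acts before it, had 117 and 114 UPM against 27.4 and 25.9 UPM. Vcan, which encodes the hyaluronan-binding proteoglycan versican, had 542 and 524 UPM against 47.1 and 45.5 UPM. Cemip2, a cell surface relative of Cemip, was highest in early osteoblasts at 248 and 173 UPM. Hyal4 and Spam1 had no UMI in the cells of the mesenchymal classes.

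Among 13421 genes with enough UMIs, those most like a hyaluronan gene over the 24 class levels were found by Pearson r of log2(UPM + 5), as a description of points that share 2 libraries. For Has1 they were Gfpt2 (0.944), Ly6c1 (0.912, a marker of the fibroblast class) and Ugdh (0.911). For Has2 they were Nfkb1 (0.875), Zfp385a (0.867) and Engase (0.848), and for Tnfaip6 Osr1 (0.891), Ifi205 (0.869) and Plau (0.864). Gfpt2 was most like Has1 (0.944), Creb5 (0.896) and Cdon (0.896), and Cd44 most like Serpinb8 (0.905), Rnh1 (0.886) and Camkk1 (0.885).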
